A study of Homo sapiens with 6 samples.

Results

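The DNA replication machinery was examined as 51 genes, chosen by name from the 24580 rows of the deposited expression table, and all 51 were found there and passed the filter on low values. They cover 8 steps: licensing of origins, the helicase, the kinase that fires it, primase and polymerases, the clamp with its loader, RPA and lagging-strand enzymes, nucleotide supply, fork protection and chromatin assembly. Messenger RNA had been measured by RNA sequencing in 2 groups of 3 libraries each. LoVo is an established human colorectal adenocarcinoma line, labelled as wildtype. LoVo-HM is labelled as its subline of high metastatic capacity, and neither group was treated. The labels give neither the way the subline was derived nor whether the libraries of a group came from separate cultures, so p-values measure only the spread between these libraries, which may be technical.

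Before S phase, the origin recognition complex (ORC), CDC6 and CDT1 load the ring-shaped MCM2 to MCM7 helicase onto origins, and geminin (GMNN) stops reloading by binding CDT1. The kinase CDC7 with its activator DBF4 then lets CDC45 and the GINS complex join the ring, and the polymerases, the sliding clamp PCNA and the ligase copy both strands behind it. Many of these genes are transcribed in late G1 and S phase under E2F factors, so in bulk RNA their level follows the share of cycling cells as well as the level in each cell, and these cannot be told apart here.

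Levels are FPKM (fragments counted on a transcript, corrected for its length and for the size of the library), given as mean ± SD with n = 3 libraries. Differences are LoVo-HM minus LoVo on the log2(FPKM + 1) scale ± SE. Adjusted p-values come from limma with Benjamini-Hochberg adjustment over all 14487 tested genes, and a gene is said to have risen or fallen where the adjusted p is under 0.05. Library totals ran from 434108 to 439082 FPKM (LoVo) and from 424624 to 428265 (LoVo-HM). The read depth is unknown. All 5 epithelial markers were found in every library, with a summed level of 2008 to 2063 FPKM for LoVo against 2599 to 2702 for LoVo-HM. The keratins made up most of it and were higher in LoVo-HM (KRT8, KRT18 and KRT19), while the adhesion genes were lower there, EPCAM at 128 ± 1.99 and 51.7 ± 2.6 FPKM and CDH1 at 48.0 ± 1.38 and 7.91 ± 0.359 FPKM. Their part in the replication gene values was not tested. Of 5 colonic markers, VIL1 and GPA33 were listed at 0 in all 6 libraries, CEACAM5 reached at most 0.056 FPKM, KRT20 was listed at 0 in LoVo and at 2.92 ± 0.475 FPKM in LoVo-HM, and CDX2 stood at 8.39 ± 0.129 and 14.7 ± 0.96 FPKM. Of 14 markers of fibroblasts, immune cells and endothelium, PTPRC, COL1A2, PECAM1 and KDR were listed at 0 throughout and the highest was COL1A1 at 6.29 FPKM. The summed fibroblast markers ran from 4.83 to 6.35 FPKM in LoVo and 4.73 to 5.71 in LoVo-HM, and the immune markers from 3.63 to 3.96 and 2.78 to 3.3.

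The promoters are shown first because many of these genes share a motif. RefSeq promoters (GRCh38.p14), 250 bases before to 50 bases after the start, were matched by symbol for 45 of the 51 (not for MCM4, MCM5, GINS4, POLD3, RPA2 and RPA3). E2F-type matches were the exact letters TTTCCCGC, TTTGGCGC, TTTCGCGC or TTTGCCGC on either strand. At least 1 such match lay in the promoters of 22 of the 45 genes (48.9%), against 3.31% of the 35116 promoters in the table and 6.65% of the 9930 tested genes with a promoter. Mean GC content was 64.8% ± 7.16 (SD) over the 45 genes and 64.8% ± 9.07 over the tested genes. It was found in 14 of the 28 genes that rose and in 8 of the 17 others, and the median log2 difference was 0.30 for the 22 genes with a match and 0.20 for the 23 without. A match is a description of letters, not a measured binding site.

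For 8 of these genes, 30 bases around the match nearest the most upstream start are printed on the gene's strand, with E2F-type letters in capitals. The first 6 rose in LoVo-HM, and POLE2 and CDT1 are shown because they carry a match and did not pass the test.
MCM2, chr3:127598402-127598431, plus strand: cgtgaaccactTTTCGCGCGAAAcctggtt
MCM3, chr6:52284728-52284757, minus strand: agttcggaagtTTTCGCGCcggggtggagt
MCM7, chr7:100101388-100101417, minus strand: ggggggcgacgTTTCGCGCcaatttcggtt
CDC6, chr17:40287875-40287904, plus strand: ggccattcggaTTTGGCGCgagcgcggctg
PCNA, chr20:5126663-5126692, minus strand: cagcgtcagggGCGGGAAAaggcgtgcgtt
TYMS, chr18:657603-657632, plus strand: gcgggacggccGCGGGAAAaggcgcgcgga
POLE2, chr14:49688201-49688230, minus strand: ctgcggcggtgGCGCCAAAtcgcaaatatg
CDT1, chr16:88803743-88803772, plus strand: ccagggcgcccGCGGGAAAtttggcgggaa

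MCM2 holds overlapping matches on opposite strands, read as 1 run of capitals. The promoter of MCM6, a helicase subunit that rose, holds 4 matches in 2 such overlapping pairs, the most of the 19 genes with a match at their most upstream start. The 200 bases before its start are given with E2F-type letters and CCAAT boxes (CCAAT or its complement ATTGG) in capitals. The window before CHAF1A, a histone chaperone gene that also rose, is set beside it as a promoter with CCAAT boxes and no E2F-type match, and the last 2 of its boxes overlap in opposite directions.
MCM6, chr2:135876444-135876643, minus strand: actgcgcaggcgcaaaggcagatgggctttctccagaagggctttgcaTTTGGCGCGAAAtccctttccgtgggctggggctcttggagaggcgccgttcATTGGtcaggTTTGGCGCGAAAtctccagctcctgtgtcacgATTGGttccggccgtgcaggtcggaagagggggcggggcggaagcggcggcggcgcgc
CHAF1A, chr19:4402440-4402639, plus strand: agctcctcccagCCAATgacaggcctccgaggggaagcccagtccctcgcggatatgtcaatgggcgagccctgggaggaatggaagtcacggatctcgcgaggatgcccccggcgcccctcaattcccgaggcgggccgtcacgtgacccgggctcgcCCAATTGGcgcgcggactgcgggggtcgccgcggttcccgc

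CCAAT lay in the promoters of 27 of the 45 genes, against 34.6% of all promoters and 43.0% of the tested genes. It was found in 20 of 28 genes that rose (71.4%) and 7 of 17 others (41.2%). The median log2 difference was 0.33 for the 27 genes with the box and 0.18 for the 18 without. MCM4, MCM5, POLD3 and RPA3, which also rose, had no matched promoter and are not in these counts. Whether the box or the E2F-type letters go with the rise was not tested. The share with the box among all tested genes that rose is not given here. The cell cycle homology region of genes active late in the cycle (TTTGAA or TTCGAA) was in 3 of 45 (6.67%), against 16.4% of all promoters and 15.3% of the tested genes. At the most upstream start, 19 genes held 25 E2F-type matches, of which 17 began between 60 bases before and 10 bases after the start. Each match of an overlapping pair is counted. The share of matches in this stretch over promoters of other genes is not given here, so the count is a description only.

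**Figure D1:**
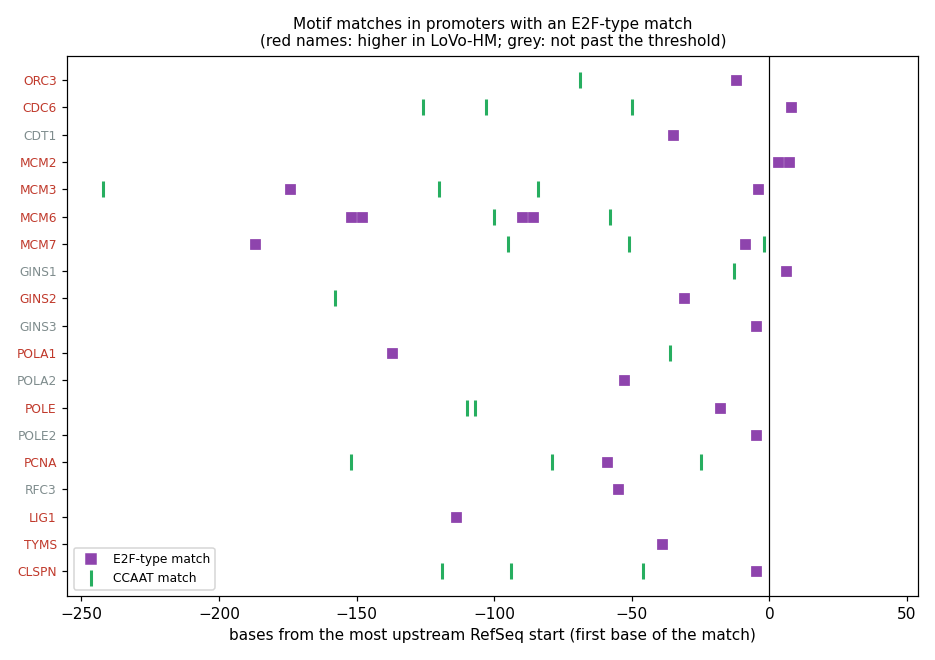
Position of E2F-type matches (squares) and CCAAT matches (bars) in bases from the most upstream RefSeq start, for the 19 genes with an E2F-type match there, 1 row a gene, with red names for genes higher in LoVo-HM and grey names for those not past the threshold. Of the 25 E2F-type matches, each of an overlapping pair counted, 17 begin within 60 bases before to 10 bases after the start. No share over promoters of other genes is given beside it.

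Setting LoVo-HM against LoVo shows how the transcripts of each replication step differ between the lines. Of the 51 genes, 32 rose in LoVo-HM (62.7%), against 21.8% of all tested genes. One gene, ORC5, fell (1.96%), against 23.1% of all tested genes, and 18 did not pass the test. The counts of each step below are to be read against the same 21.8% and 23.1%. The median log2 difference was 0.28 over the 51 genes and 0.00 over all tested genes. No member changed 2-fold, whereas 6.56% of all tested genes passed with a log2 difference of at least 1 in size. The largest increase was that of MCM5, 1.67-fold. In 37 of the 51 genes (72.5%, against 55.0% of tested genes) no library of either line lay within the range of the other, and LoVo-HM stood above LoVo in 35 of them (68.6%, against 27.1%). The summed level of the 51 genes was 1905, 1915 and 1884 FPKM in LoVo against 2389, 2347 and 2405 in LoVo-HM. Without LoVo replicate 3 the number of genes that rose was 26, the lowest count of any alternative.

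**Figure D2:**
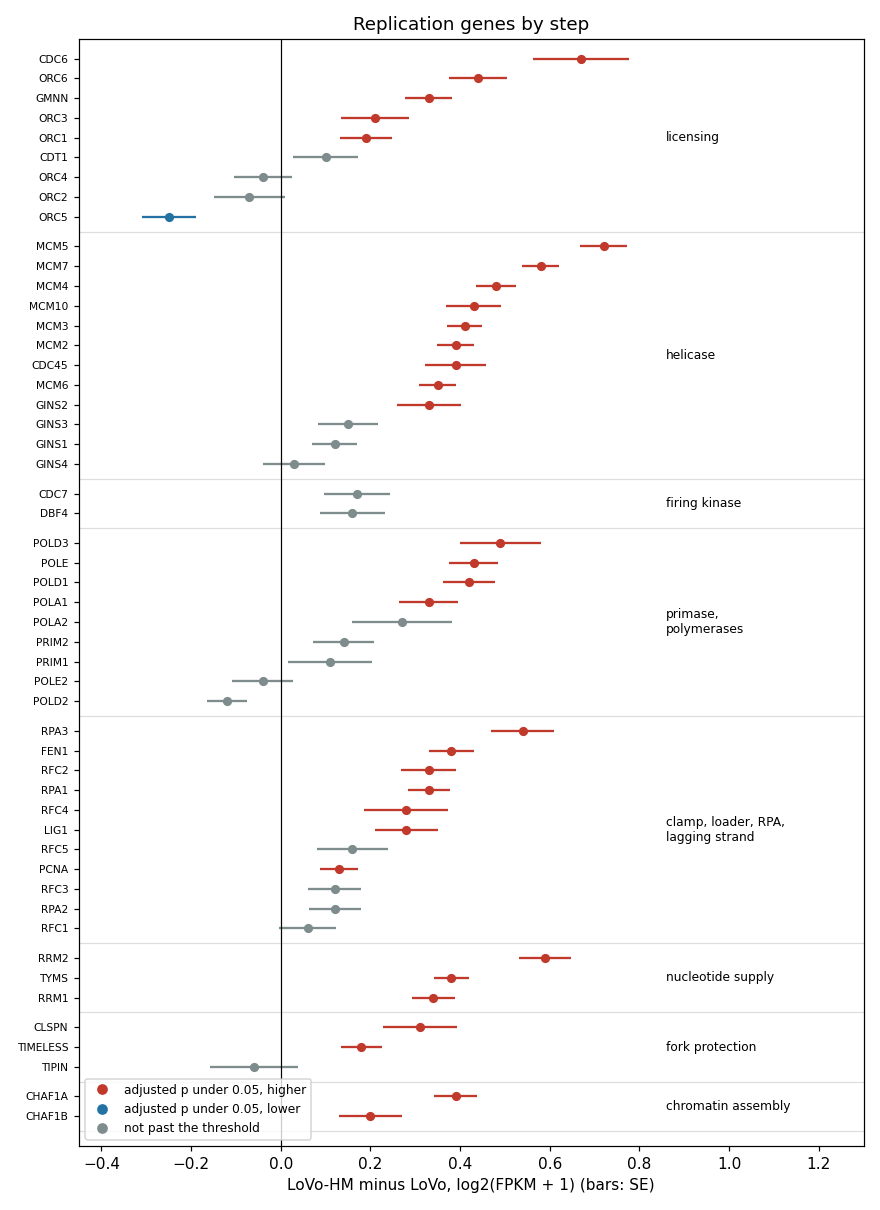
Difference of each of the 51 genes between LoVo-HM and LoVo on the log2(FPKM + 1) scale (points, with SE as bars), grouped by step and coloured by the test. The 32 red genes lie right of 0, up to MCM5 at 0.72, and ORC5 at -0.25 is the blue gene.

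In the licensing step the loading factor CDC6 and the licensing inhibitor GMNN rose, CDT1, which GMNN binds, did not pass the test, and the origin recognition subunits went different ways. Of 9 licensing genes 5 rose, 1 fell and 3 did not pass, with a median of 0.19. Over all tested genes 21.8% rose and 23.1% fell. The count of licensing genes that rose was 3 where LoVo replicate 2 or 3 or LoVo-HM replicate 1 or 2 was left out. CDC6, the ATPase that joins ORC to load the helicase (chromosome 17, 40287633 to 40304657), was at 23.1, 17 and 22.9 FPKM in LoVo and 35.0, 33.2 and 32.9 in LoVo-HM. LoVo replicate 2 was the lowest, and the groups stood well apart (0.67 ± 0.107, limma adjusted p = 0.0011). GMNN was at 39.1, 37.5 and 35.0 FPKM in LoVo and 47.8, 47.0 and 46.2 in LoVo-HM (0.33 ± 0.053, limma adjusted p = 0.00107). CDT1, the partner that GMNN restrains, did not pass: its libraries overlapped, at 24.5, 23.3 and 22 against 25.5, 26.9 and 22.6 FPKM (0.10 ± 0.073, limma adjusted p = 0.31).

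ORC6, the subunit least tightly bound to the rest of the complex, went from 27.4 ± 2.23 to 37.6 ± 1.1 FPKM (0.44 ± 0.064, limma adjusted p = 0.000652). ORC5 (chromosome 7, 104126341 to 104208047), a core subunit with an ATPase fold, was at 28.8, 30.6 and 28.9 FPKM in LoVo and 24.3, 23.2 and 26.3 in LoVo-HM. Every LoVo-HM library lay below every LoVo library (-0.25 ± 0.06, limma adjusted p = 0.00932). The core subunits ORC2 and ORC4 were among the lowest of the 51 genes and overlapped between the groups (6.87 ± 0.429 against 6.49 ± 0.527 FPKM, and 8.98 ± 0.0923 against 8.69 ± 0.475 FPKM). ORC1, the subunit whose protein turns over in the cycle, rose from 21.5, 20.5 and 20.1 to 24.6, 24.3 and 22.3 FPKM (0.19 ± 0.058, limma adjusted p = 0.0286), and ORC3 from 16.6 ± 1.46 to 19.3 ± 1.24 FPKM (0.21 ± 0.076, limma adjusted p = 0.0497). Both calls were thin. ORC1 lost its call without LoVo replicates 2 and 3 and LoVo-HM replicates 1 and 2 (limma adjusted p = 0.0829, 0.085, 0.101 and 0.0759). ORC3 lost its call in 11 of 16 alternatives, among them those without LoVo replicates 2 and 3 (0.121 and 0.152) and LoVo-HM replicates 1, 2 and 3 (0.085, 0.0561 and 0.139).

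All 6 subunits of the MCM2 to MCM7 ring rose, with no overlap between groups and a median of 0.45. MCM7 (chromosome 7, 100092728 to 100101940) was at 166, 161 and 155 FPKM in LoVo and 243, 244 and 236 in LoVo-HM (0.58 ± 0.041, limma adjusted p = 7.53e-06). MCM5 (chromosome 22, 35400063 to 35425430) was at 37.6, 35.7 and 33.5 FPKM in LoVo and 59.1, 60.7 and 58.1 in LoVo-HM (0.72 ± 0.053, limma adjusted p = 1.02e-05). For both genes the highest LoVo library was far below the lowest LoVo-HM library.

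MCM4 rose from 117 ± 1.5 to 165 ± 8.14 FPKM (0.48 ± 0.045), MCM3 from 78.8 ± 1.04 to 105 ± 1.94 (0.41 ± 0.039), MCM2 from 66.8 ± 1.85 to 88.0 ± 0.43 (0.39 ± 0.041) and MCM6 from 59.0 ± 1.66 to 75.2 ± 1.11 (0.35 ± 0.042, the highest limma adjusted p of the 6 at 0.000233). The ring holds 1 copy of each subunit, but the transcripts were unequal: MCM7 made up 31.0% ± 0.555 of the summed FPKM of the 6 in LoVo and 32.9% ± 0.792 in LoVo-HM, MCM5 6.87% ± 0.262 and 8.09% ± 0.238. MCM5, the lowest, rose most, and the ratio of the highest to the lowest subunit went from 4.42, 4.52 and 4.61 in the LoVo libraries to 4.11, 4.02 and 4.06 in LoVo-HM. The summed level of the 6 was 518 ± 10.3 FPKM in LoVo against 733 ± 5.7 in LoVo-HM.

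The factors that turn the ring into an active helicase rose in part. MCM10, which helps to start unwinding, rose from 16.8 ± 0.576 to 23.1 ± 1.37 FPKM (0.43 ± 0.061, limma adjusted p = 0.00055). CDC45, part of the active helicase, went from 26.2 ± 2.4 to 34.5 ± 0.639 (0.39 ± 0.068, limma adjusted p = 0.00173). Of the 4 GINS subunits, which form 1 complex, GINS2 was the 1 that passed the test, at 13.6, 16.4 and 14.7 FPKM in LoVo and 18.7, 19 and 19.1 in LoVo-HM (0.33 ± 0.071, limma adjusted p = 0.00575). GINS1 and GINS3 did not overlap between groups yet missed the threshold (0.12 ± 0.051 and 0.15 ± 0.068, limma adjusted p = 0.0849 and 0.102). GINS1 passed in 3 of 16 alternatives, with a limma adjusted p = 0.047 with no filter, 0.0406 after rescaling to 1 total and 0.045 after quantile normalization. GINS4 stood at 10.2 ± 0.192 and 10.4 ± 0.805 FPKM (0.03 ± 0.069). A difference between GINS2 and the other subunits was not tested. Neither partner of the firing kinase passed: CDC7 was at 15.7 ± 1.25 and 17.8 ± 1.08 FPKM (0.17 ± 0.074, limma adjusted p = 0.1), and DBF4 at 19.3 ± 1.26 and 21.7 ± 1.59 FPKM (0.16 ± 0.072, limma adjusted p = 0.101). Without LoVo-HM replicate 2, its lowest library of that group, DBF4 passed (limma adjusted p = 0.0469).

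**Figure D3:**
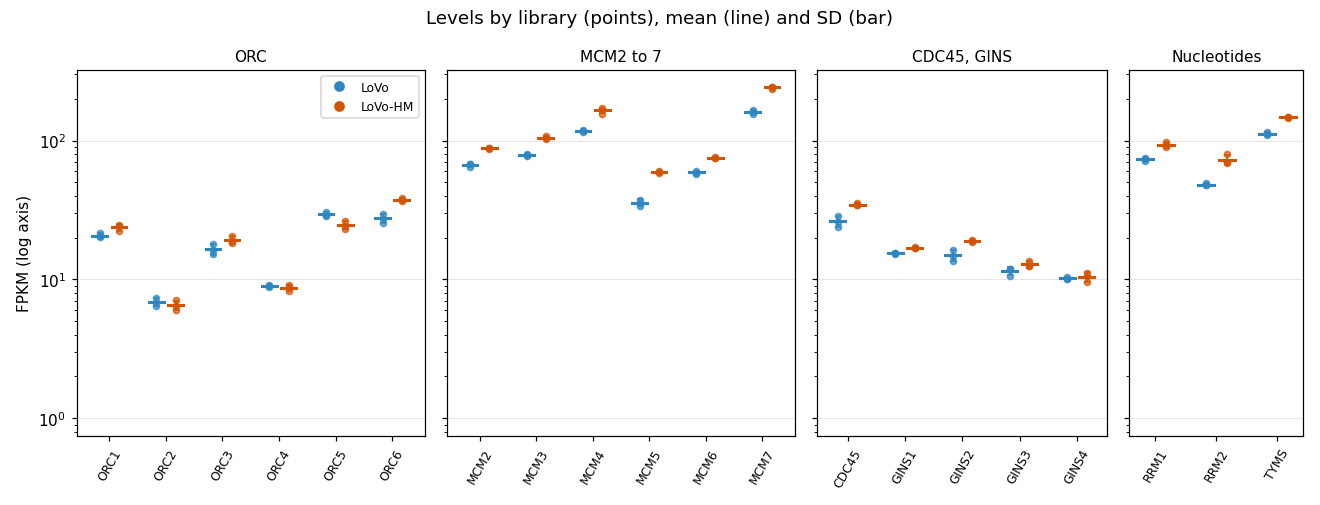
FPKM on a log axis for ORC, the MCM2 to MCM7 ring, CDC45 with GINS, and nucleotide supply genes, with 1 point a library, the mean as a line and the SD as a bar, LoVo in blue and LoVo-HM in orange. All 6 ring subunits and all 3 nucleotide genes lie higher in LoVo-HM with no overlap, while ORC5 lies lower.

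Among the polymerases the catalytic subunits POLA1, POLD1 and POLE and the accessory subunit POLD3 rose. The other genes of the step, among them the primase genes PRIM1 and PRIM2, did not pass the test. A difference between catalytic and accessory subunits was not tested. Of 9 genes in this step 4 rose, none fell and 5 did not pass, with a median of 0.27. Over all tested genes 21.8% rose and 23.1% fell. POLE, the catalytic subunit of the leading-strand polymerase (chromosome 12, 132623753 to 132687365), was at 16.5, 16.7 and 17.2 FPKM in LoVo and 24.0, 23.0 and 22 in LoVo-HM (0.43 ± 0.054, limma adjusted p = 0.000299). Its partner POLE2 was at 13.4, 15.1 and 15.1 against 14.9, 13.9 and 13.5 FPKM, with overlapping groups (-0.04 ± 0.068, limma adjusted p = 0.665). POLD1, the catalytic subunit of the lagging-strand polymerase, rose from 29.7 ± 1.45 to 40.0 ± 2.03 FPKM (0.42 ± 0.058, limma adjusted p = 0.000492).

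The accessory subunit POLD3 rose from 10.4 ± 0.56 to 15.1 ± 1.97 FPKM (0.49 ± 0.091, limma adjusted p = 0.00257). POLD2, which bridges POLD1 and POLD3, was at 92.5, 86.5 and 86.4 FPKM in LoVo and 81.4, 82.4 and 80.1 in LoVo-HM. Those groups did not overlap, with LoVo-HM lower, and the value missed the threshold (-0.12 ± 0.044, limma adjusted p = 0.0528). After quantile normalization POLD2 passed it (-0.11, limma adjusted p = 0.0449). In the polymerase alpha and primase complex, which lays the RNA-DNA primer, the catalytic POLA1 rose from 7.14 ± 0.336 to 9.22 ± 0.299 FPKM (0.33 ± 0.066, limma adjusted p = 0.00365). POLA2 (0.27 ± 0.111), PRIM1 (0.11 ± 0.094) and PRIM2 (0.14 ± 0.069) did not pass (limma adjusted p = 0.0793, 0.387 and 0.138). POLA2 passed without LoVo replicate 2 and without LoVo-HM replicate 1 (limma adjusted p = 0.0203 and 0.0456).

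In the step of the clamp, its loader, RPA and lagging-strand processing, 7 of 11 genes rose and 4 did not pass, with a median of 0.28. Over all tested genes 21.8% rose. PCNA was the highest of the 51 genes by its mean over both groups, although MCM7 stood above it in LoVo-HM. It was at 196, 209 and 201 FPKM in LoVo and 224, 212 and 227 in LoVo-HM. The groups were close, with 209 below 212, and PCNA passed narrowly (0.13 ± 0.043, limma adjusted p = 0.0396). Its call was lost in 8 of 16 alternatives, with a limma adjusted p = 0.123 without LoVo replicate 1, 0.0932 without LoVo replicate 3, 0.121 without LoVo-HM replicate 1 and 0.0916 without LoVo-HM replicate 3. FEN1, the nuclease that trims lagging-strand flaps, rose from 48.5 ± 0.935 to 63.4 ± 3.24 FPKM (0.38 ± 0.05, limma adjusted p = 0.000371). LIG1, which seals the fragments, went from 29.8 ± 2.71 to 36.2 ± 1.52 (0.28 ± 0.07, limma adjusted p = 0.0115).

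RPA coats single-stranded DNA as a trimer. RPA3, its smallest subunit, was at 10.4, 9.32 and 8.98 FPKM in LoVo and 14.8, 14.5 and 13.8 in LoVo-HM (0.54 ± 0.07, limma adjusted p = 0.000309), and RPA1 rose from 37.7 ± 1.53 to 47.6 ± 0.436 FPKM (0.33 ± 0.047, limma adjusted p = 0.000589). RPA2 overlapped between groups (31.5 ± 1.35 and 34.4 ± 1.93 FPKM, limma adjusted p = 0.121). Of the 5 clamp loader genes, RFC2 rose from 37.4 ± 1.24 to 47.3 ± 3.38 FPKM (0.33 ± 0.061, limma adjusted p = 0.00252). RFC4 rose from 32.5 ± 2.26 to 39.8 ± 5.3 FPKM (0.28 ± 0.094, limma adjusted p = 0.0414). Its exons overlap those of EIF4A2 on the other strand, which stood higher (134 and 149 FPKM) and rose too (limma adjusted p = 0.0277). The strand setting of the counting is not given, so reads of this pair cannot be told apart. The RFC4 call was lost in 7 of 16 alternatives, with a limma adjusted p = 0.128, 0.0529 and 0.0746 without LoVo replicates 1, 2 and 3, and 0.0866 and 0.103 without LoVo-HM replicates 1 and 3. RFC1, RFC3 and RFC5 had values of 0.06 ± 0.064, 0.12 ± 0.059 and 0.16 ± 0.08 and did not pass. RFC5 passed without LoVo-HM replicate 1 (limma adjusted p = 0.0286).

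All 3 nucleotide supply genes rose with no overlap. RRM2, the regulatory subunit of ribonucleotide reductase made in S phase (chromosome 2, 10120698 to 10131419), was at 47.9, 49.2 and 47.5 FPKM in LoVo and 69.4, 70.2 and 79.4 in LoVo-HM, with LoVo-HM replicate 3 the highest (0.59 ± 0.058, limma adjusted p = 6.66e-05). RRM1, the catalytic subunit, was at 74.8, 74.2 and 71.5 against 93.1, 89.1 and 98.4 FPKM (0.34 ± 0.048, limma adjusted p = 0.000546). TYMS, the enzyme that makes thymidylate and the target of fluoropyrimidine drugs, was at 111, 116 and 109 against 147, 148 and 145 FPKM (0.38 ± 0.039, limma adjusted p = 7.91e-05). The exons of TYMS overlap those of ENOSF1 on the other strand, which was far lower (9.9 and 9.26 FPKM).

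Of the fork protection genes, CLSPN, which carries the checkpoint signal to CHK1, rose from 8.3 ± 0.753 to 10.6 ± 0.796 FPKM (0.31 ± 0.083, limma adjusted p = 0.0146). Without LoVo replicate 3 its call was lost (limma adjusted p = 0.0506). TIMELESS rose from 33.8 ± 0.661 to 38.3 ± 0.721 FPKM (0.18 ± 0.045, limma adjusted p = 0.0123). TIPIN, which binds TIMELESS, did not pass, at 15.4, 13.7 and 13.8 against 13.8, 11.8 and 15.6 FPKM (-0.06 ± 0.098). Of the histone chaperone CAF-1, CHAF1A rose from 39.9 ± 1.45 to 52.5 ± 1.47 FPKM (0.39 ± 0.048, limma adjusted p = 0.000264), while CHAF1B went from 11.1 ± 0.682 to 12.9 ± 0.777 (0.20 ± 0.07, limma adjusted p = 0.0447). CHAF1B lost its call without LoVo replicates 2 and 3 (limma adjusted p = 0.137 and 0.111) and LoVo-HM replicates 1 and 3 (0.108 and 0.121).

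Ratios of partners within a library do not depend on how libraries are scaled. For 12 pairs, an exact two-sided permutation test over the libraries was run, whose smallest possible p with 3 against 3 is 0.1, so no ratio can pass a threshold of 0.05. In 5 of the 12 the groups did not overlap, each at this smallest p of 0.1 (0.24 after Benjamini-Hochberg adjustment over the 12). With 3 against 3 libraries this p says no more than that the groups did not overlap. Taken singly, 55.0% of all tested genes did not overlap, and how often ratios of other gene pairs separate was not tested. The FPKM ratio of POLE to POLE2 was 1.23, 1.11 and 1.14 in LoVo and 1.61, 1.65 and 1.63 in LoVo-HM. CDT1 to GMNN was 0.627, 0.62 and 0.63 in LoVo and 0.534, 0.572 and 0.49 in LoVo-HM, so the inhibitor stood higher against its target in each LoVo-HM library. CDC6 to CDT1 was 0.941, 0.731 and 1.04 against 1.37, 1.23 and 1.45. RRM1 to RRM2 was 1.56, 1.51 and 1.5 against 1.34, 1.27 and 1.24, and PRIM1 to POLA1 2.71, 2.75 and 3.11 against 2.49, 2.16 and 2.53. The other 7 ratios overlapped; POLD1 to POLE was 1.76 ± 0.119 and 1.74 ± 0.0415, and CDC7 to DBF4 0.819 ± 0.0999 and 0.82 ± 0.031.

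**Figure D4:**
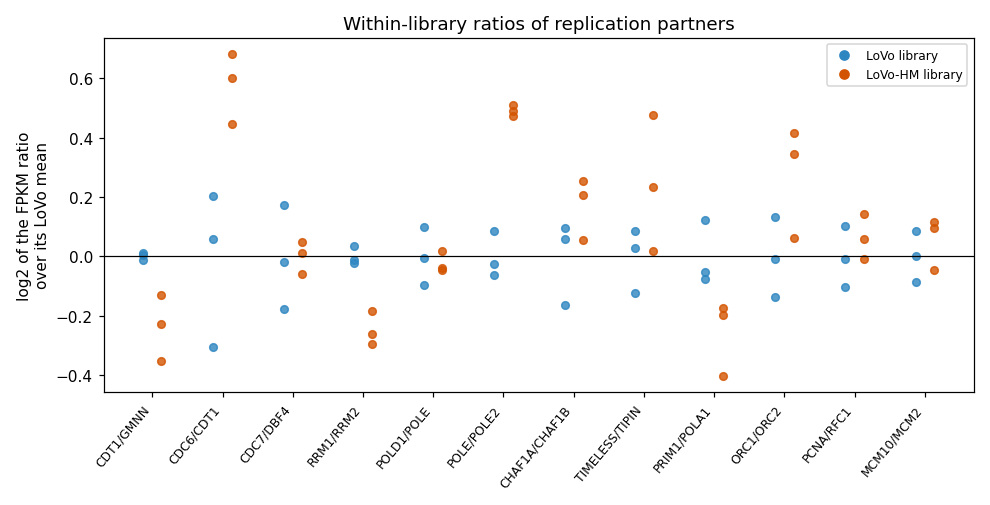
Within-library FPKM ratios of 12 pairs of replication genes, as log2 of the ratio over its LoVo mean, with 1 point a library, LoVo in blue and LoVo-HM in orange. The groups separate for CDT1/GMNN, CDC6/CDT1, RRM1/RRM2, POLE/POLE2 and PRIM1/POLA1.

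Genes of the same pathway outside the 51 went the same way in part, and the counts of each list are to be read against the 21.8% of all tested genes that rose and the 23.1% that fell. Of 27 accessory replication genes 15 rose, 1 fell and 11 did not pass, with a median of 0.23. The nuclease and helicase DNA2 rose from 8.89 ± 0.497 to 13.2 ± 0.348 FPKM (0.52 ± 0.064), RNASEH2C, a subunit of the enzyme that removes ribonucleotides, from 11.9 ± 0.482 to 19.1 ± 1.93 (0.63 ± 0.079), the topoisomerase TOP2A from 92.5 ± 5.03 to 126 ± 6.16 (0.44 ± 0.055) and the helicase RECQL4 from 20.5 ± 0.924 to 28.3 ± 1.26 (0.45 ± 0.058). The gene that fell was POLD4, the fourth subunit of polymerase delta (-0.52, limma adjusted p = 0.00614), named after its value was seen. Of 15 other nucleotide synthesis genes 8 rose and 7 did not pass, with a median of 0.20. Thymidine kinase TK1 was at 61.1, 60.5 and 61.1 FPKM in LoVo and 102, 103 and 89.8 in LoVo-HM (0.68 ± 0.058, limma adjusted p = 2.56e-05).

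Of 13 other genes of chromatin duplication 8 rose and 5 did not pass, with a median of 0.19. UHRF1, which brings the maintenance DNA methyltransferase to new DNA, was at 34.3, 33.7 and 32.8 FPKM in LoVo and 66.5, 74.1 and 66.1 in LoVo-HM (1.01 ± 0.056, limma adjusted p = 1.53e-06). The others include ASF1B, which hands histones to CAF-1 (from 35.5 ± 0.731 to 53.8 ± 3.92 FPKM, 0.59 ± 0.059), and SLBP, which binds histone messages (from 61.6 ± 1.55 to 76.8 ± 3.71 FPKM, 0.31 ± 0.049). Among 17 E2F, RB and cyclin E genes 7 rose, 3 fell and 7 did not pass, with a median of 0.06. E2F1, an activator of replication genes, was at 16.6, 15.0 and 15.7 FPKM in LoVo and 25.8, 25.7 and 23.2 in LoVo-HM (0.62 ± 0.064, limma adjusted p = 8.17e-05). The repressor E2F8 was at 5.77, 4.93 and 5.07 against 12.2, 11.4 and 11.5 FPKM (1.02 ± 0.075, limma adjusted p = 9.73e-06), and CDK2, the kinase of cyclin E and A, rose from 37.0 ± 2.2 to 61.0 ± 2.7 FPKM (0.71 ± 0.057). TFDP1 rose from 95.5 ± 2.32 to 115 ± 0.811 FPKM (0.26 ± 0.039, limma adjusted p = 0.000679). The 3 that fell, named after their values were seen, were E2F7 (-0.23), TFDP2 (-0.35) and RBL2 (-0.19). Of 9 genes of mitochondrial DNA replication, POLG (0.34 ± 0.058) and TOP1MT (0.16 ± 0.052) rose and 7 did not pass, with a median of 0.15, a share near that of all tested genes. TOP1MT lost its call without LoVo replicates 2 and 3 (limma adjusted p = 0.109 and 0.0952) and LoVo-HM replicates 1 and 2 (0.0877 and 0.0886). Leaving out 1 of LoVo replicates 2 and 3 or LoVo-HM replicate 1 left 1 called gene of this list, and leaving out LoVo-HM replicate 3 gave 3.

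Mitotic genes moved beside the replication genes. Of 25 such genes 21 rose and 4 did not pass, with a median of 0.31. CDKN3, a phosphatase that acts on cyclin-dependent kinases, rose from 103 ± 4.99 to 193 ± 6.26 FPKM (0.90 ± 0.048), and the kinesin KIF20A from 37.4 ± 0.399 to 54 ± 0.439 (0.52 ± 0.041). The mean log2(FPKM + 1) of the 51 replication genes was 4.77, 4.78 and 4.77 in LoVo and 5.04, 5.02 and 5.05 in LoVo-HM, and that of the 25 mitotic genes 5.52, 5.56 and 5.57 against 5.89, 5.84 and 5.93. Replication genes minus mitotic genes thus gave -0.75, -0.77 and -0.79 in LoVo and -0.85, -0.83 and -0.88 in LoVo-HM on this log2 scale. The part of cell cycle phase or growth rate in the replication gene values was not tested.

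**Figure D5:**
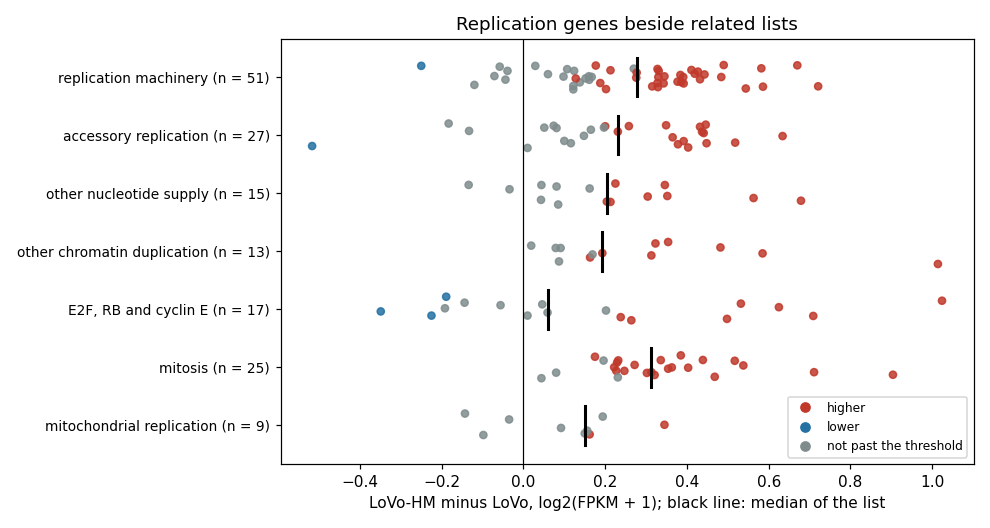
Difference of each gene between LoVo-HM and LoVo on the log2(FPKM + 1) scale for the 51 replication genes and 6 related lists, 1 point a gene coloured by the test, with the median of each list as a black line. The medians are 0.28 for the replication machinery, 0.31 for mitosis and 0.06 for the E2F, RB and cyclin E list.

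The 51 genes lie on 21 chromosomes, with at most 6 on 1 of them. The median log2 difference of all tested genes on those chromosomes ran from -0.05 to 0.08. Chromosome 7, whose tested genes had a median of 0.01, holds members that went opposite ways, with MCM7, RPA3 and RFC2 higher and ORC5 lower. Of the 51 genes, 17 start within 1 kb of a tested gene on the other strand, and 13 of those 17 rose. Of these 13 head-to-head neighbours 3 rose and 10 did not pass, a share near the 21.8% of all tested genes that rose. The 3, named after their values were seen, were AP4M1 beside MCM7 (from 6.3 to 10.2 FPKM, 0.61), PRKDC beside MCM4 (from 66.6 to 80.0 FPKM, 0.26) and PRPF38A beside ORC1 (from 11.8 to 15.1 FPKM, 0.33). The exons of MCM7 and AP4M1 overlap, and the strand setting of the counting is not given, so reads of this pair cannot be told apart. Exons of 15 of the 51 genes overlap those of another tested gene. Some of these neighbours stood higher than the member and rose, named after their values were seen. They were EIF4A2 over RFC4, NACA over PRIM1 on the same strand (240 and 263 FPKM) and WSB2 over RFC5 (31.6 and 35.6 FPKM). The other overlapping neighbours, AP4M1 aside, did not pass. The part of such overlaps in the member values was not tested. Across the 51 genes, Spearman's rho between the mean level and the log2 difference was 0.388, a description over genes of the same libraries that are not independent replicates.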

How the data were processed

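The authors deposited FPKM values per gene, 1 column for each library, in a single table. RNA came from Trizol extraction and libraries from an Illumina TruSeq kit (per the labels' protocols), and GRCh38 is the build that the submitters' processing notes name. Which aligner, counter, annotation and strand setting were used, and the depth, is not given in the sources used here. FPKM were taken without rescaling as log2(FPKM + 1). The filter kept genes averaging 0.5 FPKM or more. limma 3.58.1 in R 4.3.3 was fitted with a variance trend, and adjusted p-values under 0.05 (Benjamini-Hochberg, 14487 genes) were called. The fit was also run on simulated data, whose outcome is not given here, so it lends the calls no support. Positions are from GENCODE 29, and promoters from RefSeq (GRCh38.p14). Of 25 promoters of these genes on the minus strand, 22 had the bases after their start in a GENCODE transcript of the gene.

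The members and lists were chosen with earlier results of these data known. Every member could be named, and of each other list the 4 genes with the smallest p. The alternatives changed the pseudocount (0.1, 0.5), the filter (none, or a mean of 2 FPKM), the scaling (3 ways) and the variance fit (2 ways), added the replicate number as a block, or left out 1 library at a time. Some genes covered by this rule are not reported here, and protein sequences were not used here.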

Additional observations from a re-analysis of the deposited data

How the results depend on the processing

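Of the 33 members called, 27 stayed past the threshold under all 16 alternatives and none of the 33 changed sign; the others were ORC1, ORC3, PCNA, RFC4, CLSPN and CHAF1B. Leaving out 1 library gave 26 to 31 members higher and 1 lower, and 5484 to 5986 calls over all genes. After quantile normalization 2 members were lower, ORC5 and POLD2. The count for mitochondrial replication was 1 without a variance trend, and 1 to 3 leaving out 1 library. Taking the median of the mitotic genes changed the difference against them from -0.08 to -0.05. In the window of 150 bases before the start, E2F-type letters were found in 15 of the 45 members with a promoter (33.3%, against 3.65% of tested genes). CCAAT was found in 24 (53.3%, against 32.6%), and the cell cycle homology region in 0 (against 6.91%). Values near 0 changed sign for ORC4 after quantile normalization (0.002), and for GINS4 and TIPIN without LoVo-HM replicate 2; leaving out 1 library gave -0.019 to 0.083 for GINS4 and -0.15 to 0.04 for TIPIN. The log2 ratio of CDC7 to DBF4 ran from -0.077 to 0.098 (-0.017 without LoVo-HM replicate 3) and that of POLD1 to POLE from -0.064 to 0.033. The cause was not tested. Fork protection had 1 gene higher without LoVo replicate 3, and chromatin assembly 1 in 6 alternatives.

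With the replicate number as a block, 31 members were higher, 1 was lower and 6459 genes were called. Deviations of same-numbered libraries correlated at -0.00701, 0.0215 and 0.0264, and not every library correlated best with its own number. The labels give only a replicate number, and these correlations cannot settle whether same-numbered libraries shared a batch or culture. Under the block ORC3 and PCNA lost their calls (limma adjusted p = 0.0728 and 0.0585) and POLA2 gained one (0.0101). Rescaling to 1 total and quantile normalization moved the median over all genes to 0.029 and 0.042, and the share of calls that were higher from 48.6% to 53.9% and 55.2%. Depth is unknown, so no counting error is given.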
